A study of Homo sapiens with 15 samples.

Results

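The transcripts described here are those of the MYC and MAX network, 10 genes that were chosen by name (MYC, MYCN, MYCL, MAX, MXD1, MXD3, MXD4, MXI1, MNT and MGA) out of the 58381 genes counted. They were measured by bulk RNA sequencing in 15 libraries, 3 for each of 5 sublines of VCaP, a prostate cancer cell line with androgen receptor and epithelial markers. All 10 genes were found in the count tables, and 9 of them passed the filter on low counts and entered the tests over 19621 genes. MYCN did not pass it.

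All 5 sublines descend from VCaP cells that had been kept in 10 nM testosterone for 7 months, and that testosterone-dependent culture is VCaP-T. VCaP-CT was derived from VCaP-T by a further 10 months at 0.1 nM testosterone, although the treatment field of its libraries lists 10 nM for that period. VCaP-CT-ER was derived from VCaP-CT by culture in 10 µM enzalutamide, an androgen receptor antagonist, until growth returned. VCaP-CT-BR was derived from VCaP-CT with bicalutamide, an earlier antagonist, and its labels add enzalutamide once bicalutamide no longer acted, so that its step may not be one of bicalutamide alone. VCaP-CT-BR-ER is the later form of VCaP-CT-BR that grows despite enzalutamide. Each subline was derived once, so a difference between sublines cannot be told apart from a difference between these particular cultures, and the spread among 3 libraries does not cover a repeat of the derivation.

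The genes on which this account turns code for a family of basic helix-loop-helix leucine zipper proteins. MYC, MYCN and MYCL pair with MAX, bind the E-box hexamer and raise transcription of genes for growth, ribosomes and the cell cycle. MXD1, MXI1, MXD3, MXD4 and MNT compete for MAX and bind the same hexamer, but recruit the SIN3 and histone deacetylase corepressor. MGA also pairs with MAX and is a scaffold of a variant Polycomb complex. In the prostate, MYC is a well known oncogene that is often gained in advanced tumours.

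The libraries held between 33665716 and 46935279 counts. Within a subline the correlation of log2 levels was at least 0.9938, between sublines it was at most 0.9704, and all 15 libraries were closest to their own subline. The VCaP-CT libraries were the least deep. The share of counts on mitochondrial genes was also lowest in VCaP-CT (7.18 to 7.60%) and highest in VCaP-CT-ER (9.17 to 9.56%), and the part of either in the results was not tested. Of the 9 prostate luminal markers all were detected in every library, and their summed level ranged from 9528 to 23110 CPM (counts relative to the library total, here always scaled by TMM factors that even out differences in composition). KLK3, which codes for prostate-specific antigen, ranged from 13.5 to 3617 CPM. The 9 markers of leukocytes, endothelium and fibroblasts summed to 0.969 to 23.6 CPM, with means of 21.6 CPM in VCaP-T, 9.82 CPM in VCaP-CT and 1.18 to 2.07 CPM in the other 3 sublines. CD3E and COL1A2 had no count in any library, while VWF reached 13.2 CPM in VCaP-T, and the part of these markers in the results was not tested.

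**Figure D1:**
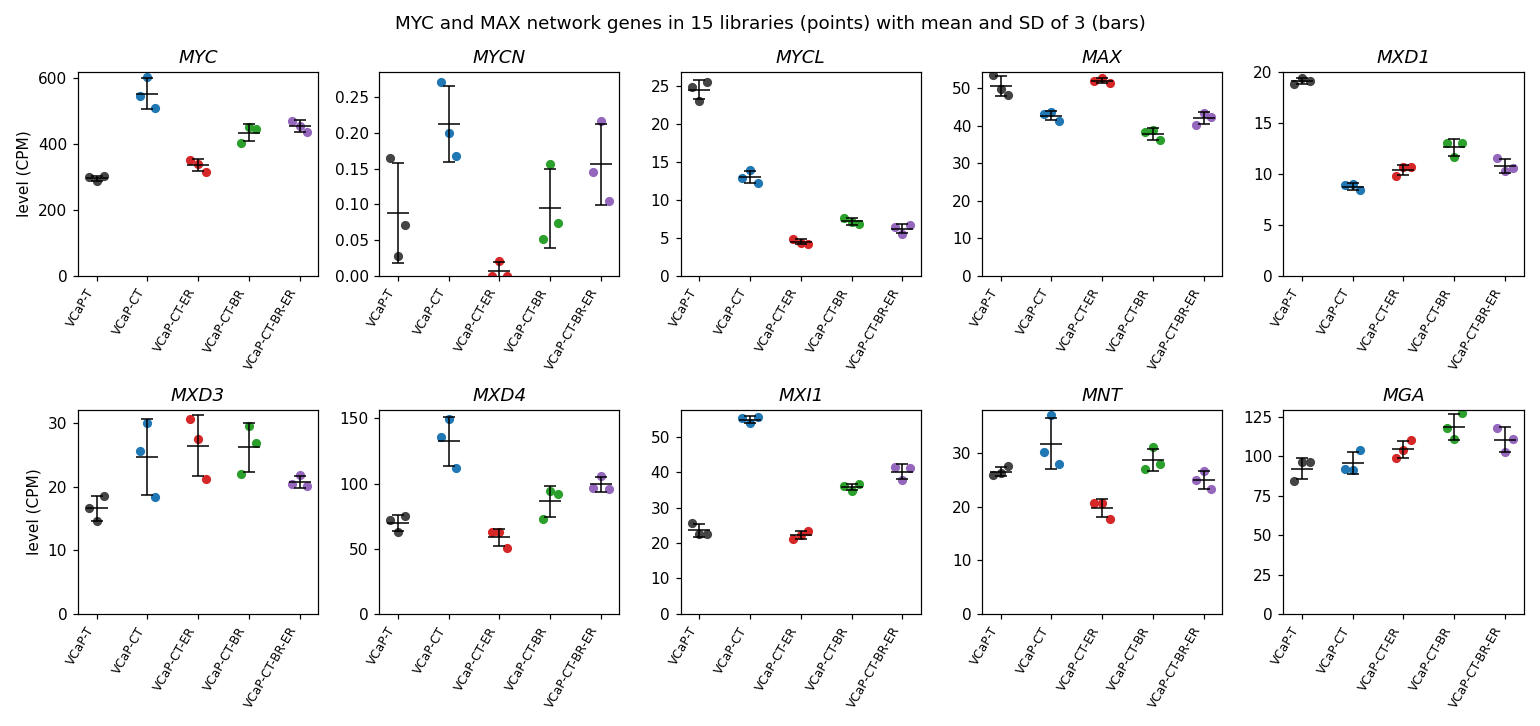
Level of each of the 10 network genes in CPM (y axis, linear and starting at 0 in each panel) in 3 libraries (points) of each of 5 sublines (x axis), with the mean and SD as bars. MYC, MXD4, MXI1 and MNT had their highest mean in VCaP-CT and lower means in VCaP-CT-ER, whereas MYCL and MXD1 were highest in VCaP-T.

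MYC was the most abundant member in every library when levels were expressed per kilobase of exon, the only scale on which different genes are compared here. It made up 68.1 to 68.5% of the summed CPM per kb of the 10 members in VCaP-T and 73.0 to 76.4% in the libraries of the other 4 sublines. In CPM, the 3 libraries of VCaP-T had MYC at 300, 287 and 301. The libraries of VCaP-CT had 545, 602.5 and 510 CPM, those of VCaP-CT-ER had 350, 339 and 315 CPM, those of VCaP-CT-BR had 403, 452 and 445 CPM, and those of VCaP-CT-BR-ER had 471, 454 and 435 CPM. No VCaP-CT library overlapped another subline, and VCaP-CT-BR-ER, next in the order of means, overlapped VCaP-CT-BR. The order of means thus ran from VCaP-CT (552.5 ± 46.8 CPM, SD, n = 3) through VCaP-CT-BR-ER (453 ± 17.6), VCaP-CT-BR (433.5 ± 26.4) and VCaP-CT-ER (335 ± 18.2) to VCaP-T (296 ± 7.77).

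MYCL, a paralogue of MYC with more restricted expression, followed another order. Its libraries held 24.9, 23.1 and 25.6 CPM in VCaP-T and 12.9, 13.9 and 12.2 CPM in VCaP-CT. They held 4.85, 4.37 and 4.22 CPM in VCaP-CT-ER, 7.65, 7.04 and 6.82 CPM in VCaP-CT-BR and 6.44, 5.53 and 6.63 CPM in VCaP-CT-BR-ER. No neighbours in this order overlapped, and the means spanned 5.47-fold from VCaP-T to VCaP-CT-ER, the widest span among the 9 members tested. MYCN, the paralogue known from neuroblastoma and neuroendocrine tumours, was close to undetected, with 0 to 9 counts per library. Summed over the 3 libraries of a subline, there were 10 counts for VCaP-T and 22 for VCaP-CT, then 11 for VCaP-CT-BR, 18 for VCaP-CT-BR-ER and 1 for VCaP-CT-ER. Fewer than 3 counts in a library cannot be separated from none, so that its presence in VCaP-CT-ER was not detectable at this depth. When edgeR was run without the filter, MYCN was lower in VCaP-CT-ER than in VCaP-CT (adjusted p = 4.77e-05 over 38661 genes), on 22 counts against 1.

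MAX, the shared partner of all the other proteins, varied least after MGA, with means that spanned 1.38-fold. It stood at 52.0 ± 0.615 CPM (SD, n = 3) for VCaP-CT-ER and 50.5 ± 2.68 CPM for VCaP-T. Lower means were those of VCaP-CT at 42.7 ± 1.27 CPM, VCaP-CT-BR-ER at 41.9 ± 1.63 CPM and VCaP-CT-BR at 37.8 ± 1.48 CPM. The libraries of VCaP-T and VCaP-CT-ER overlapped, as did those of VCaP-CT and VCaP-CT-BR-ER. The length used is that of all counted exons of a gene, so levels per kilobase are not transcript numbers. On this scale MYC stood at 8.67 ± 0.499 times MAX in VCaP-T and at 19.1 ± 1.10 times MAX in VCaP-CT. This ratio was 17.0 ± 1.33 for VCaP-CT-BR, 16.0 ± 1.16 for VCaP-CT-BR-ER and 9.49 ± 0.451 for VCaP-CT-ER. VCaP-CT-BR overlapped VCaP-CT-BR-ER in it, VCaP-T overlapped VCaP-CT-ER (8.27 to 9.23 and 9.04 to 9.94), and the lowest VCaP-CT library (18.2) was level with the highest of VCaP-CT-BR (18.2).

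Among the repressors, MXI1 and MXD4 had the same order of subline means as each other. MXI1 held 25.7, 22.6 and 22.6 CPM in VCaP-T and 55.3, 53.8 and 55.6 CPM in VCaP-CT. It held 21.1, 22.3 and 23.6 CPM in VCaP-CT-ER, 36.2, 34.8 and 36.6 CPM in VCaP-CT-BR and 41.6, 37.8 and 41.1 CPM in VCaP-CT-BR-ER. VCaP-CT was apart from all the others, and only VCaP-T and VCaP-CT-ER overlapped as neighbours. MXD4 held 72.1, 62.8 and 74.9 CPM in VCaP-T, 136, 150 and 112 CPM in VCaP-CT, and 62.5, 62.7 and 50.8 CPM in VCaP-CT-ER. It held 72.9, 94.4 and 92.0 CPM in VCaP-CT-BR and 96.7, 106 and 95.5 CPM in VCaP-CT-BR-ER. Here too VCaP-CT was highest in all 3 libraries and VCaP-CT-ER lowest, while VCaP-CT-BR overlapped VCaP-T.

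MXD1, the founding member of the repressors and a gene of differentiating cells, was highest in VCaP-T at 18.9, 19.5 and 19.2 CPM. It was lowest in VCaP-CT at 8.94, 8.97 and 8.39 CPM. VCaP-CT-ER held 9.84, 10.7 and 10.7 CPM, VCaP-CT-BR 13.1, 11.6 and 13.1 CPM and VCaP-CT-BR-ER 11.5, 10.3 and 10.6 CPM. Only VCaP-CT-BR-ER and VCaP-CT-ER overlapped as neighbours. The ratio of MXD4 to MXD1 per kilobase was therefore 3.28 ± 0.335 in VCaP-T and 13.6 ± 1.48 in VCaP-CT.

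MNT, a repressor expressed in most cells, had means from 19.8 ± 1.74 CPM in VCaP-CT-ER to 31.8 ± 4.74 CPM in VCaP-CT, and VCaP-CT-ER was the subline without overlap with its neighbour. MXD3, which is known from proliferating progenitors, had means from 16.6 ± 1.94 CPM in VCaP-T to 26.4 ± 4.80 CPM in VCaP-CT-ER, and its libraries spread from 18.3 to 30.1 CPM within VCaP-CT. MXD3 shares 926 of its exon bases (18.0%) with RAB24 on the same strand and 1158 (22.5%) with PRELID1 on the other. Reads in those bases were given to no gene by the counting used, so its level is uncertain. MGA had means from 92.3 ± 6.80 CPM in VCaP-T to 119 ± 8.22 CPM in VCaP-CT-BR, and all neighbours in its order overlapped.

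The summed CPM per kb of the 6 genes MXD1, MXD3, MXD4, MXI1, MNT and MGA ranged over the libraries from 28.2 to 30.7 for VCaP-T, from 42.0 to 49.5 for VCaP-CT, from 34.3 to 38.7 for VCaP-CT-BR, from 37.0 to 38.1 for VCaP-CT-BR-ER and from 26.4 to 29.0 for VCaP-CT-ER. MXD4 was the largest part of this sum in VCaP-CT (37.9 to 42.8%), with MXI1 at 23.6 to 28.8%. The level of MYC over this sum was 3.27 to 3.40 in VCaP-T and 3.84 to 4.12 in every library of the other 4 sublines. Within those 4, VCaP-CT (3.92 to 4.05) and VCaP-CT-BR (3.84 to 3.92) lay close without overlap, and every other pair overlapped. These sums and ratios are given as a description and were not tested. MXD3 and MNT enter them with uncertain levels, since MNT too shares exon bases with another gene (1065, or 12.2%, on the other strand).

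**Figure D2:**
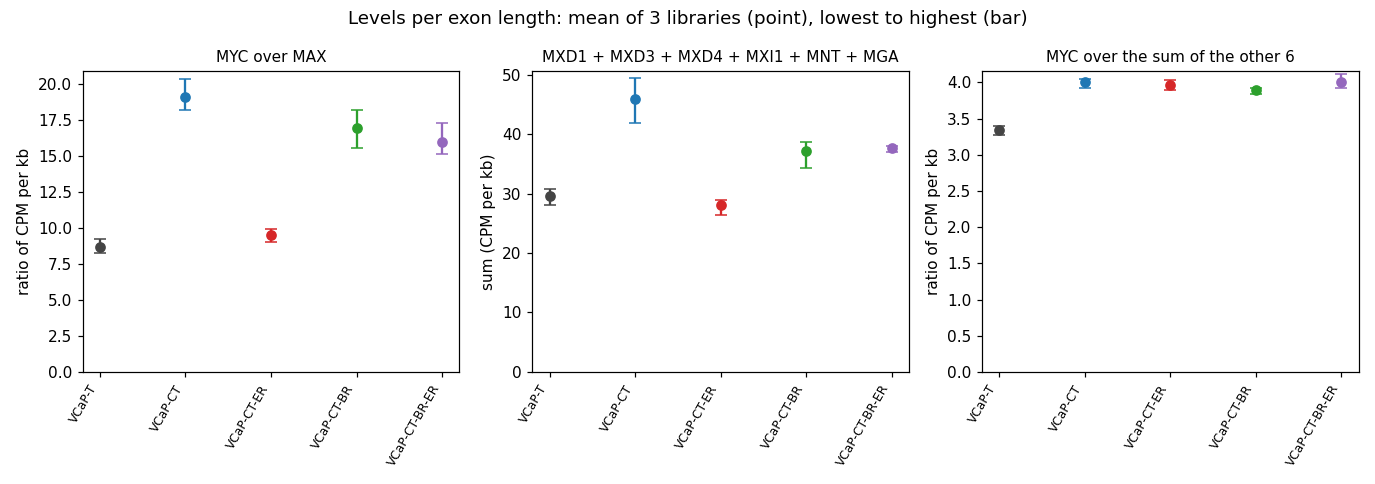
Levels per exon length in the 5 sublines (x axis), as the mean of 3 libraries (point) with the lowest and highest library (bar), for MYC over MAX, for the sum of the 6 other partners of MAX and for MYC over that sum. The ratio of MYC to MAX ranged from 8.67 to 19.1, whereas MYC over the sum stayed between 3.84 and 4.12 in every library outside VCaP-T.

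The sequence before the start of the members other than MYC was read for the E-box CACGTG, the hexamer that MYC, MAX and the MXD proteins bind. A RefSeq promoter window (GRCh38.p14, 250 bases before the annotated start) was used for 9 members in 14 windows, since MAX, MXI1 and MGA have several starts. The hexamer, which reads the same on both strands, occurred in 2 of the 14 windows, those of MXD4 and MNT. It occurred in 6.35% of all 35116 windows of this length. Both matches are shown with the hexamer in capitals, beside the first MXI1 window, which moved like MXD4 in level and holds no match. The MXD4 stretch is chr4:2262295-2262359 and the MNT stretch chr17:2401119-2401310, both on the minus strand, and the MXI1 stretch is chr10:110207355-110207604 on the plus strand. Those of MXD4 and MNT were ended where the counted gene begins.
MXD4: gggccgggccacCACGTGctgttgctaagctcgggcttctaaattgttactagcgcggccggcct
MNT: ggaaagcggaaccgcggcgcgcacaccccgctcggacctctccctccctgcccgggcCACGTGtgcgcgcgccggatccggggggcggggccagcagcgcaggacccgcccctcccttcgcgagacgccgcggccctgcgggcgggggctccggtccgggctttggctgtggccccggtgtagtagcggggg
MXI1: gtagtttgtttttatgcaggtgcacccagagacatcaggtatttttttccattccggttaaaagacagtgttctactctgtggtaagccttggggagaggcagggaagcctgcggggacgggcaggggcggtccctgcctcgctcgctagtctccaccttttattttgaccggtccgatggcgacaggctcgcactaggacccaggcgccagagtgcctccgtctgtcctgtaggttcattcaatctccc
The match begins 238 bases before the RefSeq start in MXD4 and 193 bases before it in MNT. A match is a description of the letters and not evidence of binding, and its absence in MXI1 says only that these letters are not in this window.

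The step to low testosterone, VCaP-CT against VCaP-T, was compared to learn which network genes differed between these sublines. MYC rose to 1.87-fold, together with the repressors MXI1, MXD4, MXD3 and MNT, while MYCL, MXD1 and MAX fell. In edgeR's quasi-likelihood test with Benjamini-Hochberg adjustment over all genes, 8 of the 9 members were called, against 65.3% of all genes. Higher levels were called for 5 members (33.1% of all genes) and lower levels for 3 (32.2% of all genes), so that calls were common in either direction. The threshold was an adjusted p of 0.05, and SE is the standard error of the log2 fold change. The log2 fold change of MYC was 0.90 (SE 0.06, adjusted p = 2.84e-11). Those of MXI1 and MXD4 were 1.22 (SE 0.06, adjusted p = 4.02e-13) and 0.92 (SE 0.10, adjusted p = 1.05e-07). MXD1 fell by 1.13 (SE 0.07, adjusted p = 2.02e-11) and MYCL by 0.92 (SE 0.08, adjusted p = 1.67e-09) on the log2 scale. Among all genes tested, 16.4% had a larger change than MXI1 in either direction, 18.3% a larger one than MXD1 and 25.2% a larger one than MYC. MXD3 rose by 0.57 (SE 0.15, adjusted p = 0.00216), MNT by 0.26 (SE 0.09, adjusted p = 0.0159) and MAX fell by 0.24 (SE 0.05, adjusted p = 0.00055). MGA differed by 0.05 (SE 0.07, adjusted p = 0.519). The call of MNT was lost without VCaP-T replicate 1 (adjusted p = 0.0675) or VCaP-CT replicate 2 (adjusted p = 0.21).

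Resistance to enzalutamide reached directly from VCaP-CT, VCaP-CT-ER against VCaP-CT, showed the opposite sign for most of these genes. The comparisons share the VCaP-CT libraries, and a subline that is high in both has to give opposite signs. MXI1 fell by 1.30 (SE 0.06, adjusted p = 1.55e-13), MXD4 by 1.17 (SE 0.10, adjusted p = 3.51e-09), MYC by 0.72 (SE 0.06, adjusted p = 1.12e-09) and MNT by 0.68 (SE 0.09, adjusted p = 1.22e-06) on the log2 scale. MYCL did not reverse but fell again, by 1.53 (SE 0.09, adjusted p = 3.66e-12), and only 9.88% of all genes had a larger change. MAX rose by 0.29 (SE 0.05, adjusted p = 0.000111) and MXD1 by 0.25 (SE 0.08, adjusted p = 0.0082). In all, 7 of 9 members were called, against 60.9% of all genes, with 2 higher (29.6% of all genes) and 5 lower (31.2%). The median log2 fold change of the 9 was -0.68, beside -0.02 over all genes tested. MXD3 differed by 0.10 (SE 0.14, adjusted p = 0.556) and MGA by 0.13 (SE 0.07, adjusted p = 0.123). MGA became a call without VCaP-CT replicate 3 (adjusted p = 0.0194) and when low counts were not filtered (adjusted p = 0.0244).

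In the subline derived with bicalutamide, VCaP-CT-BR against VCaP-CT, MYC, MYCL, MXD4 and MXI1 were again below VCaP-CT, whose libraries this comparison also shares. MYC fell by 0.35 (SE 0.06, adjusted p = 4.62e-05), MYCL by 0.86 (SE 0.09, adjusted p = 4.37e-08), MXD4 by 0.62 (SE 0.10, adjusted p = 3.66e-05) and MXI1 by 0.61 (SE 0.06, adjusted p = 4.16e-08) on the log2 scale. MXD1 rose by 0.53 (SE 0.08, adjusted p = 6.2e-06). Unlike in the enzalutamide line, MAX fell here, by 0.18 (SE 0.06, adjusted p = 0.0101), and MGA rose by 0.31 (SE 0.07, adjusted p = 0.000734). The 7 of 9 members called compare with 53.1% of all genes, and they were 2 higher (26.1% of all genes) and 5 lower (27.0%). MNT differed by -0.14 (SE 0.09, adjusted p = 0.185) and MXD3 by 0.09 (SE 0.15, adjusted p = 0.644). MAX lost its call without VCaP-CT replicate 2 (adjusted p = 0.0603) or VCaP-CT-BR replicate 3 (adjusted p = 0.065), and MNT gained one without VCaP-CT replicate 3 (adjusted p = 0.0357). The difference between VCaP-CT-ER and VCaP-CT-BR was itself not tested.

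**Figure D3:**
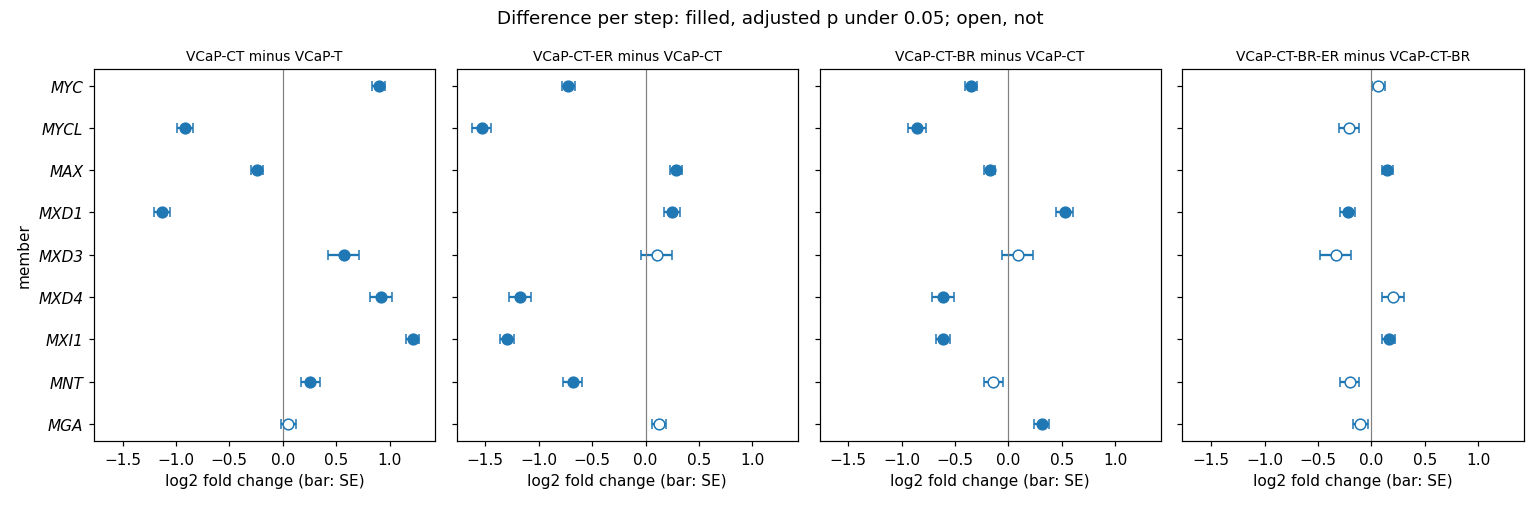
Log2 fold change (x axis, bar SE) of the 9 members tested (y axis) at each of 4 steps, filled where the adjusted p was under 0.05 and open otherwise. MYC, MXD4 and MXI1 rose from VCaP-T to VCaP-CT and fell on the way to VCaP-CT-ER, while from VCaP-CT-BR onward to VCaP-CT-BR-ER no member differed by more than 0.33.

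The last step, VCaP-CT-BR-ER against VCaP-CT-BR, had the fewest members called. Changes of at most 0.22 on the log2 scale were called for 3 of the 9 members, against 42.9% of all genes, with MAX and MXI1 higher (21.2% of all genes) and MXD1 lower (21.7%). MAX rose by 0.15 (SE 0.06, adjusted p = 0.0305), MXI1 by 0.16 (SE 0.06, adjusted p = 0.0377), and MXD1 fell by 0.22 (SE 0.07, adjusted p = 0.0183) on the log2 scale. MYC differed by 0.06 (SE 0.06, adjusted p = 0.413), MYCL by -0.21 (SE 0.09, adjusted p = 0.0746), MXD4 by 0.20 (SE 0.10, adjusted p = 0.126), MXD3 by -0.33 (SE 0.15, adjusted p = 0.0711), MNT by -0.20 (SE 0.09, adjusted p = 0.0774) and MGA by -0.10 (SE 0.07, adjusted p = 0.252).

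These 3 calls rested on single libraries. MXI1 lost its call when any of 6 libraries was left out (VCaP-CT replicate 1, VCaP-CT-BR replicates 1, 2 and 3, and VCaP-CT-BR-ER replicates 1 and 3, with adjusted p from 0.0523 to 0.125). MAX lost it without VCaP-CT replicate 1, VCaP-CT-BR replicate 3 or VCaP-CT-BR-ER replicate 2 or 3 (adjusted p from 0.0512 to 0.127). MXD1 lost it without VCaP-CT-BR replicate 1 or 3 or VCaP-CT-BR-ER replicate 2 or 3 (adjusted p from 0.0723 to 0.105). Conversely, MXD3 became a call without VCaP-CT replicate 2 or 3, VCaP-CT-ER replicate 3 or VCaP-CT-BR replicate 1 (adjusted p from 0.0273 to 0.048) and MNT without VCaP-CT replicate 2 (adjusted p = 0.0294). Without the filter on low counts all 3 calls were lost (adjusted p from 0.0529 to 0.0949), while MXD3 (adjusted p = 0.000324) and MXD4 (adjusted p = 0.00231) were called.

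The same drug was thus the named agent of a step from VCaP-CT and of a step from VCaP-CT-BR, and the difference between these steps was tested as an interaction in edgeR. It was called for 6 of the 9 members, against 49.7% of all genes, of which 5 were higher (25.2% of all genes) and 1 lower (24.5%). The change of MXI1 was more positive from VCaP-CT-BR by 1.46 (SE 0.09, adjusted p = 1.92e-11), that of MXD4 by 1.37 (SE 0.15, adjusted p = 1.2e-07), that of MYCL by 1.33 (SE 0.13, adjusted p = 2.86e-08), that of MYC by 0.79 (SE 0.08, adjusted p = 1.29e-07) and that of MNT by 0.48 (SE 0.13, adjusted p = 0.00336). The change of MXD1 was more negative by 0.47 (SE 0.11, adjusted p = 0.000926). MAX (-0.13, SE 0.08, adjusted p = 0.158), MGA (-0.23, SE 0.10, adjusted p = 0.0593) and MXD3 (-0.43, SE 0.20, adjusted p = 0.0836) did not pass. MGA passed without VCaP-T replicate 1, VCaP-CT replicate 3, VCaP-CT-ER replicate 1, VCaP-CT-BR replicate 2 or VCaP-CT-BR-ER replicate 1 (adjusted p from 0.0139 to 0.0458), and MXD3 without VCaP-CT replicate 2, VCaP-CT-ER replicate 3 or VCaP-CT-BR replicate 1 (adjusted p from 0.0148 to 0.0311). Without the filter on low counts both passed (adjusted p = 0.0148 and 0.000216). Across the 5 sublines as a whole, all 9 members tested differed, as did 88.9% of all genes.

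The network proteins work with corepressor and coactivator genes, which are described by counts beside the shares of all genes given above. In the SIN3 corepressor list (11 genes tested), 6 genes were higher and 2 lower in VCaP-CT than in VCaP-T, 6 higher and 2 lower in VCaP-CT-ER than in VCaP-CT, 5 higher and 1 lower in VCaP-CT-BR, and 5 higher and 3 lower at the last step. In VCaP-CT these are 54.5% higher and 18.2% lower, beside 33.1% and 32.2% of all genes. The median log2 fold change of the list was 0.21, 0.17, 0.11 and 0.12 at these 4 steps, beside 0.03, -0.02, -0.02 and 0.00 over all genes. ING1, a chromatin reader of the SIN3 complex, rose by 0.84 (SE 0.05, adjusted p = 9.25e-13) in VCaP-CT and fell by 0.80 (SE 0.04, adjusted p = 2.46e-12) in VCaP-CT-ER, from 157 ± 2.70 to 90.1 ± 1.38 CPM. Its relative ING2 rose at both steps, by 0.67 (SE 0.12, adjusted p = 3e-05) and 1.63 (SE 0.10, adjusted p = 5.16e-12).

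The MYC coactivators (14 genes) had 5 higher and 4 lower in VCaP-CT, 4 higher and 3 lower in VCaP-CT-ER, 3 higher and 2 lower in VCaP-CT-BR, and 5 higher and 1 lower at the last step. In VCaP-CT these are 35.7% higher and 28.6% lower, near the shares of all genes. The acetyltransferase KAT2A rose by 0.85 (SE 0.07, adjusted p = 1.42e-09) in VCaP-CT, and KAT5 fell by 0.47 (SE 0.06, adjusted p = 2.46e-07) in VCaP-CT-ER.

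Genes for the turnover of MYC protein (13 genes) had 5 higher and 4 lower in VCaP-CT, 6 higher and 4 lower in VCaP-CT-ER, 7 higher and 2 lower in VCaP-CT-BR, and 3 higher and 4 lower at the last step. In VCaP-CT these are 38.5% higher and 30.8% lower, near the shares of all genes (33.1% and 32.2%), while in VCaP-CT-BR they are 53.8% and 15.4%, beside 26.1% and 27.0%. CIP2A, an inhibitor of the phosphatase that destabilises MYC, stood at 16.7 ± 0.752 CPM in VCaP-T and 16.8 ± 1.65 CPM in VCaP-CT. It rose to 34.6 ± 2.12 CPM in VCaP-CT-ER (log2 fold change 1.04, SE 0.08, adjusted p = 4.12e-10) and to 38.1 ± 2.48 CPM in VCaP-CT-BR (1.18, SE 0.08, adjusted p = 1.65e-10). PIM1, a kinase that stabilises MYC, fell at every step and most at the steps to VCaP-CT-ER (by 1.22, SE 0.06, adjusted p = 1.18e-13) and to VCaP-CT-BR-ER (by 1.12, SE 0.06, adjusted p = 2.17e-12). These are transcripts only, and MYC protein was not measured.

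MLX pairs with MXD1, MXD4 and MNT in place of MAX, and its own list holds MLX, MLXIP and MLXIPL. In VCaP-CT 2 of these 3 fell and none rose, in VCaP-CT-ER 2 rose and none fell, in VCaP-CT-BR 1 rose and 2 fell, and at the last step 2 rose and none fell. A list of 3 genes is too small to set against the shares of all genes (33.1% higher and 32.2% lower in VCaP-CT). MLX fell by 0.80 (SE 0.06, adjusted p = 1.93e-10), from 64.8 to 37.3 CPM, on the way to VCaP-CT. In the list of the Polycomb complex built on MGA (8 of its 9 genes tested), 1 rose and 6 fell in VCaP-CT, 4 rose and 2 fell in VCaP-CT-ER, 4 rose and none fell in VCaP-CT-BR, and none rose and 2 fell at the last step. RYBP, a subunit that activates the ubiquitin ligase of the complex, fell by 0.67 (SE 0.05, adjusted p = 7.5e-10) in VCaP-CT-ER and by 0.53 (SE 0.05, adjusted p = 9.34e-08) in VCaP-CT-BR-ER. PCGF6 and YAF2 of the same list instead rose in VCaP-CT-ER, by 0.37 (SE 0.08, adjusted p = 0.000628) and 0.27 (SE 0.07, adjusted p = 0.00263). MGA itself was not called in VCaP-CT-ER or at the last step.

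The published hallmark lists of MYC targets did not follow the level of MYC at every step. MYC is itself in both lists and was left out, which gave 189 tested genes of V1 (ribosomal, splicing and proteasome genes among them) and 56 of V2 (mainly nucleolar genes). In VCaP-CT, where MYC rose, 106 of the 189 were higher and 36 lower, with a median log2 fold change of 0.20 beside 0.03 over all genes. In VCaP-CT-ER, where MYC fell, 63 were higher and 62 lower (median 0.02 beside -0.02). In VCaP-CT-BR, where MYC also fell, 119 were higher and 17 lower (median 0.20 beside -0.02). At the last step, where MYC was not called, 31 were higher and 59 lower (median -0.03 beside 0.00). As shares of the 189, these are 56.1% higher and 19.0% lower in VCaP-CT, beside 33.1% and 32.2% of all genes. In VCaP-CT-ER they are 33.3% and 32.8%, beside 29.6% and 31.2%. In VCaP-CT-BR they are 63.0% and 9.0%, beside 26.1% and 27.0%, and at the last step 16.4% and 31.2%, beside 21.2% and 21.7%. In V2 the counts were 31 higher and 11 lower, 15 and 15, 22 and 6, and 16 and 8 at these 4 steps. The medians were 0.18, 0.03, 0.11 and 0.07. Shares of V2 were 55.4% and 19.6%, 26.8% and 26.8%, 39.3% and 10.7%, and 28.6% and 14.3%.

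Named targets moved in different directions within a step. In VCaP-CT the ribosomal protein genes RPL34 and RPS2 rose by 1.18 (SE 0.08, adjusted p = 2.01e-11) and 1.14 (SE 0.07, adjusted p = 5.11e-12), though processed copies of such genes make their counts uncertain. XPOT, the exporter of transfer RNA, fell by 2.02 (SE 0.05, adjusted p = 9.43e-19), from 732 to 180 CPM, and HK2, a hexokinase of glycolysis, fell by 1.18 (SE 0.07, adjusted p = 2.42e-12). In VCaP-CT-ER the chaperone gene HSP90AB1 fell by 1.32 (SE 0.05, adjusted p = 8.73e-16), whereas PRPS2, an enzyme of nucleotide synthesis, rose by 1.49 (SE 0.06, adjusted p = 1.6e-14). In VCaP-CT-BR the cyclin A gene CCNA2 rose by 1.13 (SE 0.06, adjusted p = 1.54e-12) and the spindle checkpoint gene MAD2L1 by 0.93 (SE 0.07, adjusted p = 6.23e-10). PLK4, a kinase of centriole duplication, rose there by 0.95 (SE 0.06, adjusted p = 1.7e-11). VDAC3 of V1 and SLC29A2 of V2 fell at that step, by 0.59 (SE 0.06, adjusted p = 2.06e-08) and 0.62 (SE 0.08, adjusted p = 2.69e-06).

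**Figure D4:**
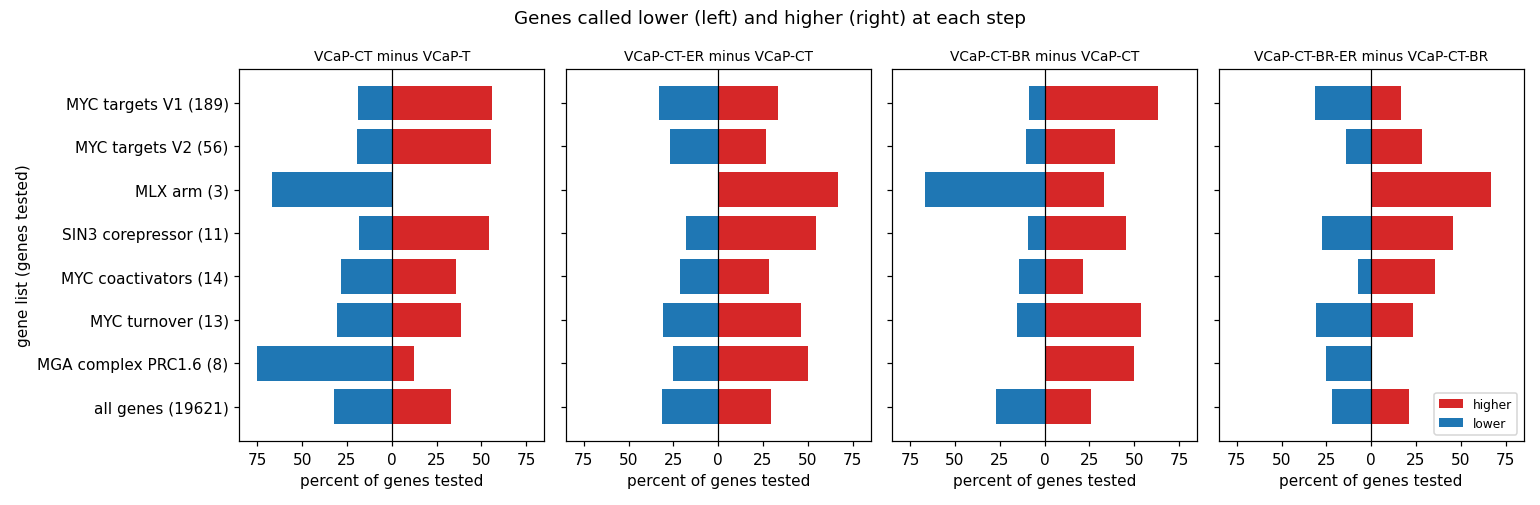
Percent of the tested genes of each list (y axis, number tested in brackets) that were called lower (left of 0) and higher (right of 0) at each of 4 steps, with all 19621 genes at the bottom. The MYC targets V1 bar reaches 56.1% higher in VCaP-CT against VCaP-T and 63.0% higher in VCaP-CT-BR against VCaP-CT, and is nearly even in VCaP-CT-ER against VCaP-CT (33.3% higher, 32.8% lower).

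MYC lies at chr8:127735434-127741434 on the plus strand (GRCh38), in a stretch that has few protein-coding genes and many long noncoding RNAs, with 8 other tested genes whose start lies within 1 Mb of its own. Of these, 7 were called higher and none lower in VCaP-CT than in VCaP-T, beside 33.1% and 32.2% of all genes. Their median log2 fold change was 1.88, beside 0.03 over all genes. Among the 7, LINC02912 (0.0604 to 0.894 CPM in VCaP-CT) and RNVU1-32 (0.302 to 0.559 CPM) rest on few reads. In VCaP-CT-ER none was higher and 5 were lower than in VCaP-CT (median -1.12), beside 29.6% and 31.2% of all genes. In VCaP-CT-BR none was higher and 3 were lower (median -0.26), beside 26.1% and 27.0%. At the last step 1 was higher and 2 were lower (median 0.11), beside 21.2% and 21.7%. The members of this stretch named next were singled out after their values were seen. PVT1, the long noncoding RNA whose start is 59.1 kb downstream, rose to 26.8 ± 2.30 CPM in VCaP-CT, starting at 17.1 ± 0.552 CPM (log2 fold change 0.65, SE 0.07, adjusted p = 2.83e-08). It fell by 0.26 (SE 0.07, adjusted p = 0.00186) in VCaP-CT-ER. CASC11, which starts at -1.5 kb from the start of MYC, stood at 0.359 ± 0.142 CPM in VCaP-T and 1.47 ± 0.134 CPM in VCaP-CT. It stood at 0.267 ± 0.0678 CPM in VCaP-CT-ER, 1.36 ± 0.111 CPM for VCaP-CT-BR and 0.665 ± 0.0820 CPM for VCaP-CT-BR-ER. POU5F1B, at -413.3 kb, held 1.05 to 1.36, 3.11 to 4.30, 0.546 to 0.982, 3.94 to 4.53 and 1.34 to 2.33 CPM in the same order of sublines, although 17.1% of its exon bases are shared with PCAT1.

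CASC11 and POU5F1B both fell at the last step, by 1.03 (SE 0.21, adjusted p = 0.000549) and 1.34 (SE 0.19, adjusted p = 6.69e-06) on the log2 scale, where MYC differed by 0.06. PRNCR1 rose there by 1.27 (SE 0.26, adjusted p = 0.000486). The libraries of VCaP-CT spread widely for CASC19 (SD 5.16 CPM, against 0.200 CPM in VCaP-T) and PRNCR1 (6.47 ± 4.21 CPM). Reads were counted without strand, so that sense and antisense transcripts cannot be told apart where they overlap.

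**Figure D5:**
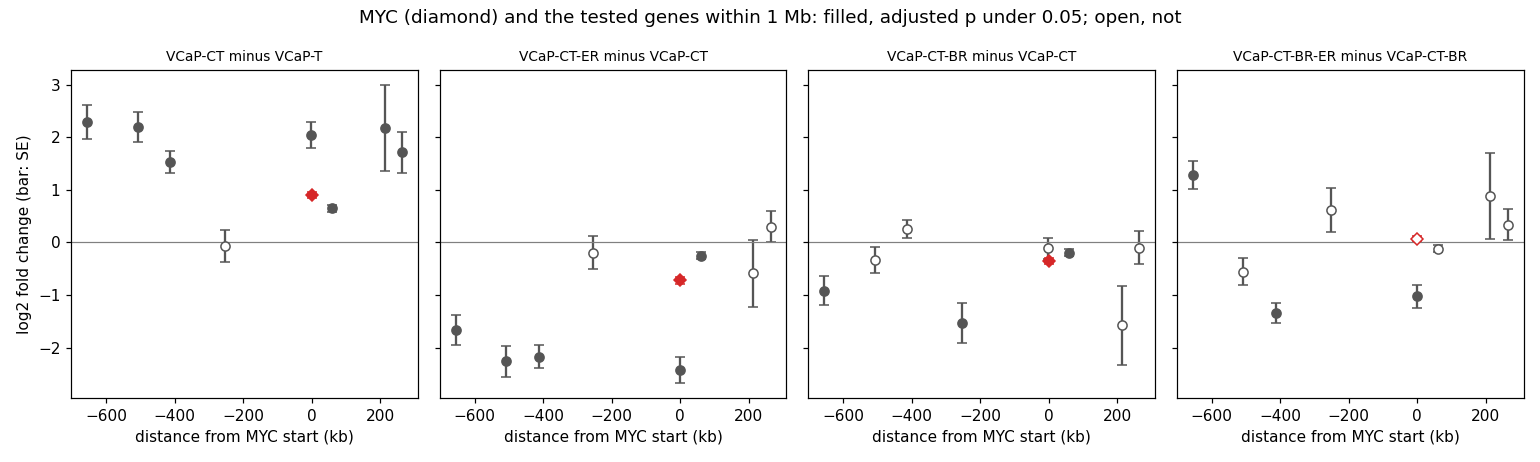
Log2 fold change (y axis, bar SE) of MYC (diamond at 0) and of the 8 tested genes that start within 1 Mb of it (circles) against distance from the start of MYC in kb (x axis), at each of 4 steps, filled where the adjusted p was under 0.05. In VCaP-CT against VCaP-T, 7 of the 8 lie above 0 with MYC and were called, beside 33.1% of all genes. In VCaP-CT-ER against VCaP-CT 5 were called below 0, beside 31.2% of all genes.

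The genes around the other members are given by the same counts, to be read beside the shares of all genes called higher and lower. These shares were 33.1% and 32.2% in VCaP-CT and 29.6% and 31.2% in VCaP-CT-ER. They were 26.1% and 27.0% in VCaP-CT-BR and 21.2% and 21.7% at the last step. The medians over all genes were 0.03, -0.02, -0.02 and 0.00 at these steps. MXI1 rose in VCaP-CT while none of the 17 tested genes within 1 Mb was called higher and 10 were lower (median -0.37). Of the 29 around MXD4, 14 were higher and 6 lower at that step (median 0.15), and 9 were higher and 9 lower in VCaP-CT-ER (median 0.00), where MXD4 fell. Around MYCL, 9 of 33 were higher and 10 lower in VCaP-CT (median 0.05), where MYCL fell. In VCaP-CT-ER, where MYCL fell again, 3 were higher and 11 lower (median -0.11). Around MXD1, which fell in VCaP-CT, 3 of 18 were higher and 12 lower at that step (median -0.27). Of the 24 around MAX, 1 was higher and 9 were lower in VCaP-CT (median -0.09), where MAX fell, and 10 were higher and 3 lower in VCaP-CT-ER (median 0.29), where MAX rose. Around MNT 8 of 30 were higher and 9 lower in VCaP-CT, where MNT rose, and 12 were higher and 5 lower in VCaP-CT-ER, where MNT fell. In VCaP-CT-BR 3 were higher and 13 lower, and at the last step 14 were higher and 3 lower. MNT was not called at either of these steps (-0.14 and -0.20). Around MGA 9 of 48 were higher and 18 lower in VCaP-CT-BR (median -0.16), where MGA rose. At the last step 15 were higher and 2 lower (median 0.145), where MGA differed by -0.10 and was not called. Of the 47 genes around MXD3, none was higher and 29 were lower at the last step (median -0.39), where MXD3 itself differed by -0.33 and did not pass. More of them were also lower than higher in VCaP-CT-ER (7 higher, 25 lower, median -0.32) and VCaP-CT-BR (5 higher, 23 lower, median -0.21). MXD3 differed there by 0.10 and 0.09 and did not pass.

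For the 4 members whose subline means spanned at least 2-fold, the closest genes in pattern were sought among 11310 protein-coding genes, by the root mean square difference of centred log2 means over the 5 sublines. For MYCL these were TBC1D16 (0.08), CDH13 (0.10) and SPOCK1 (0.11), and TBC1D16 ran from 322 CPM in VCaP-T to 67.7 CPM in VCaP-CT-ER. For MXD1 they were DNAJC1 (0.07), NAA35 (0.08) and ZNF83 (0.08). For MXD4 they were DIP2A (0.07), FLRT1 (0.08) and CFAP92 (0.08), and for MXI1 they were NCDN (0.06), CACNA1H (0.09) and LGALS3BP (0.10). NCDN held 67.5, 153, 61.3, 96.0 and 102 CPM along the sublines in the order in which they were introduced. Likeness over 5 means is a weak measure that many genes can reach, and no shared function is read from it.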

How the data were processed

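Counts per gene were deposited for 15 libraries as the authors made them, with read pairs aligned to GRCh38 by STAR 2.5.4b and counted by featureCounts 1.6.2 on GENCODE 28 without strand, leaving out reads that fit several genes or places (per the file headers and the submitters' processing notes). Library totals of 33665716 to 46935279 counts set the precision, and a level from under 3 counts was not read as presence. Symbols were taken by Ensembl ID from GENCODE 44, and 98.9% of IDs matched. Genes were kept with filterByExpr (minimum count 10), scaled by TMM and tested in edgeR 4.0.16 (R 4.3.3) by the quasi-likelihood test with 1 term per subline over all 15 libraries, with Benjamini-Hochberg adjustment over 19621 genes and a threshold of 0.05. CPM use the scaled library sizes. The paper reports the 3 libraries of a subline as biological replicates, but does not say whether they came from separate cultures. The p-values therefore measure only the spread between these libraries. The edgeR script was tested on simulated data.

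The members and lists were chosen with earlier results of these data known. The genes named are all 10 members, at most the 2 largest rises and the 2 largest falls called per list and step (average log2 CPM of at least 1), and the 3 genes closest in pattern to each member that spanned 2-fold. Genes near MYC were named outside this rule, after their values were seen. Lists were described by counts and medians with no set test. Alternatives were other scaling factors (RLE, upper quartile), no filter, DESeq2 1.42.0, a replicate block, each library left out in turn, and a fit of only the sublines compared. Promoter windows came from RefSeq (GRCh38.p14) and were used for 9 of the members, with that of MYC not used here.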

Additional observations from a re-analysis of the deposited data

Results flagged for a closer look

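The difference between the enzalutamide step from VCaP-CT and that from VCaP-CT-BR, tested as an interaction in edgeR, passed for 6 members: MYC (0.79 on the log2 scale), MYCL (1.33), MXD1 (-0.47), MXD4 (1.37), MXI1 (1.46) and MNT (0.48), where a positive value means a more positive change from VCaP-CT-BR. All of these passed whichever library was left out. By its labels VCaP-CT-BR may already have met enzalutamide, and this cannot be told apart from its use of bicalutamide. Sublines of 3 libraries are too small for a check for outlying libraries.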

How the results depend on the processing

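Of 45 pairs of a member and a comparison, 30 kept their direction and their side of the threshold under every alternative run for them, of 21 in all. The fit of only the sublines compared was not run for the interaction, which involves 4 sublines. RLE and upper quartile scaling and DESeq2 changed no call or direction among the 45. The reversals were of differences that had not passed: MGA in VCaP-CT against VCaP-T (0.05; -0.021 without VCaP-T replicate 1 or VCaP-CT replicate 3, range with a library left out -0.021 to 0.083), MXD3 in VCaP-CT-ER against VCaP-CT (0.10; -0.057 without VCaP-CT replicate 3, -0.001 without VCaP-CT-ER replicate 1, range -0.057 to 0.277) and MXD3 in VCaP-CT-BR against VCaP-CT (0.09; -0.098 without VCaP-CT replicate 3, -0.012 without VCaP-CT-BR replicate 2, range -0.098 to 0.266). The least stable count was that of VCaP-CT-BR-ER against VCaP-CT-BR, where 3 members were called, 5 with only those 2 sublines fitted (fewer samples) and 0 to 5 with a library left out. The other counts of members and of all genes stayed within 1.5 times. The cause of these changes was not tested. Same-numbered libraries did not deviate together in every pair of sublines (mean correlations from -0.256 to 0.254), so the numbers were not taken as pairs. Single libraries with different numbers did share deviations. The correlation was -0.558 for VCaP-CT replicate 2 with VCaP-CT-ER replicate 3, and 0.493 for the latter with VCaP-CT-BR replicate 1. The part of such shared deviations in the results was not tested. With the replicate block 4 members rather than 3 were called at the last step (MNT, adjusted p = 0.0395) and 7 rather than 6 in the interaction (MGA, adjusted p = 0.0375), and no other call among the 45 changed. Depth limited MYCN, with at most 9 counts in a library.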
